A study of Tursiops truncatus with 17 samples.

Results

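Chaperones are proteins that keep other proteins folded, refold those that unfold, or hand them over for breakdown, and 10 genes of this kind were followed in cerebral cortex of bottlenose dolphins (Tursiops truncatus). They were picked by gene symbol, and 9 of the 10 symbols matched a gene among the 21265 in the deposited data, each of them 1 gene. HSPB1, which encodes a small heat shock protein, matched none and is not analysed here. Of the 9, CRYAB, HSPB8 and BAG3 form the small heat shock protein group with its co-chaperone. DNAJB1, HSPA4, HSPA8, HSPH1, HSP90AA1 and HSP90AB1 form the group of larger, ATP-driven chaperones and their partners.

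The study compared estuarine dolphins sampled in bloom seasons with others sampled in non-bloom seasons. The bloom group had 9 dolphins and the non-bloom group 8, all of wild-type genotype, and RNA came from frozen cortex archived at necropsy, with 1 library per dolphin. The labels give no age, sex, date or batch, and the animals were not exposed under controlled conditions, so anything else that differed between the seasons cannot be told apart from season. Dolphins are numbered here within each season only to name them.

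Small heat shock proteins bind unfolding proteins without using ATP and hold them in a form that can be refolded. In brain, CRYAB (alpha-B crystallin) is known mainly from oligodendrocytes and astrocytes, and HSPB8 works with BAG3 to pass damaged proteins to autophagy. The HSP70 machine folds proteins in cycles of ATP use, driven by J-domain proteins such as DNAJB1 and reset by exchange factors such as HSPA4 and HSPH1, and HSP90 then matures many signalling proteins. When unfolded protein accumulates, the transcription factor HSF1 switches on many of these genes, while HSPA8 and HSP90AB1 are also made constitutively in neurons.

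Levels are the deposited CPM, reads relative to library size, scaled by TMM (a trimmed mean over genes), and reflect tissue as a whole. They are not divided by gene length, so levels are compared between dolphins and never between genes. Total reads per library were 7680050 to 12572653 in bloom dolphins and 12346713 to 15635292 in non-bloom dolphins. Transcripts of the mitochondrial genome took 1.47 to 77.2% of reads in bloom libraries and 9.68 to 22.1% in non-bloom libraries. Bloom 9, 5 and 6 had the largest shares, 77.2%, 57.0% and 33.5%, and bloom 9 had the fewest other reads, 1753299. None of the 11 neuronal, 12 astrocyte and 11 oligodendrocyte markers with a gene in the data was at 0 in any library. These markers are shared by brain regions, so they cannot tell cortex from another region or show how much white matter a sample held. The season difference of each of the 9 chaperones is also given without bloom 5, 6 and 9.

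CRYAB and DNAJB1 were the chaperones that rose in bloom cortex, CRYAB to about 3 times the non-bloom mean and DNAJB1 by less than that. HSPB8 and BAG3 had higher means in bloom dolphins, and HSPA4 a lower one, without passing the test. Means of HSPA8, HSPH1, HSP90AA1 and HSP90AB1 differed by less than the spread between dolphins. The test was limma on log2(value + 1), with p adjusted over 13548 genes by the Benjamini-Hochberg method and a threshold of 0.05. By it 2 of 9 chaperones were higher and 0 lower, beside a background of 1241 called genes (9.16% of all genes tested), 606 of them higher (4.47%) and 635 lower (4.69%). Before adjustment, 3 chaperones (CRYAB, HSPB8 and DNAJB1) were higher and 1 (HSPA4) lower at p under 0.05, beside 35.4% of all genes, 16.4% higher and 19.1% lower. edgeR's quasi-likelihood test on the reads recovered from the values called 3 of 9 higher and 0 lower, beside 8.63% of all genes called, 6.07% higher and 2.55% lower. DESeq2 called 4 higher and 1 lower, beside 23.4% of all genes, 14.4% higher and 9.04% lower. limma-voom with quality weights called 3 higher and 1 lower, beside 31.2% of all genes, 14.7% higher and 16.5% lower. When bloom 5, 6 and 9 were left out, limma called 1 of 9 higher, CRYAB, and 0 lower, beside 2.34% of all genes called, 1.68% higher and 0.659% lower.

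**Figure D1:**
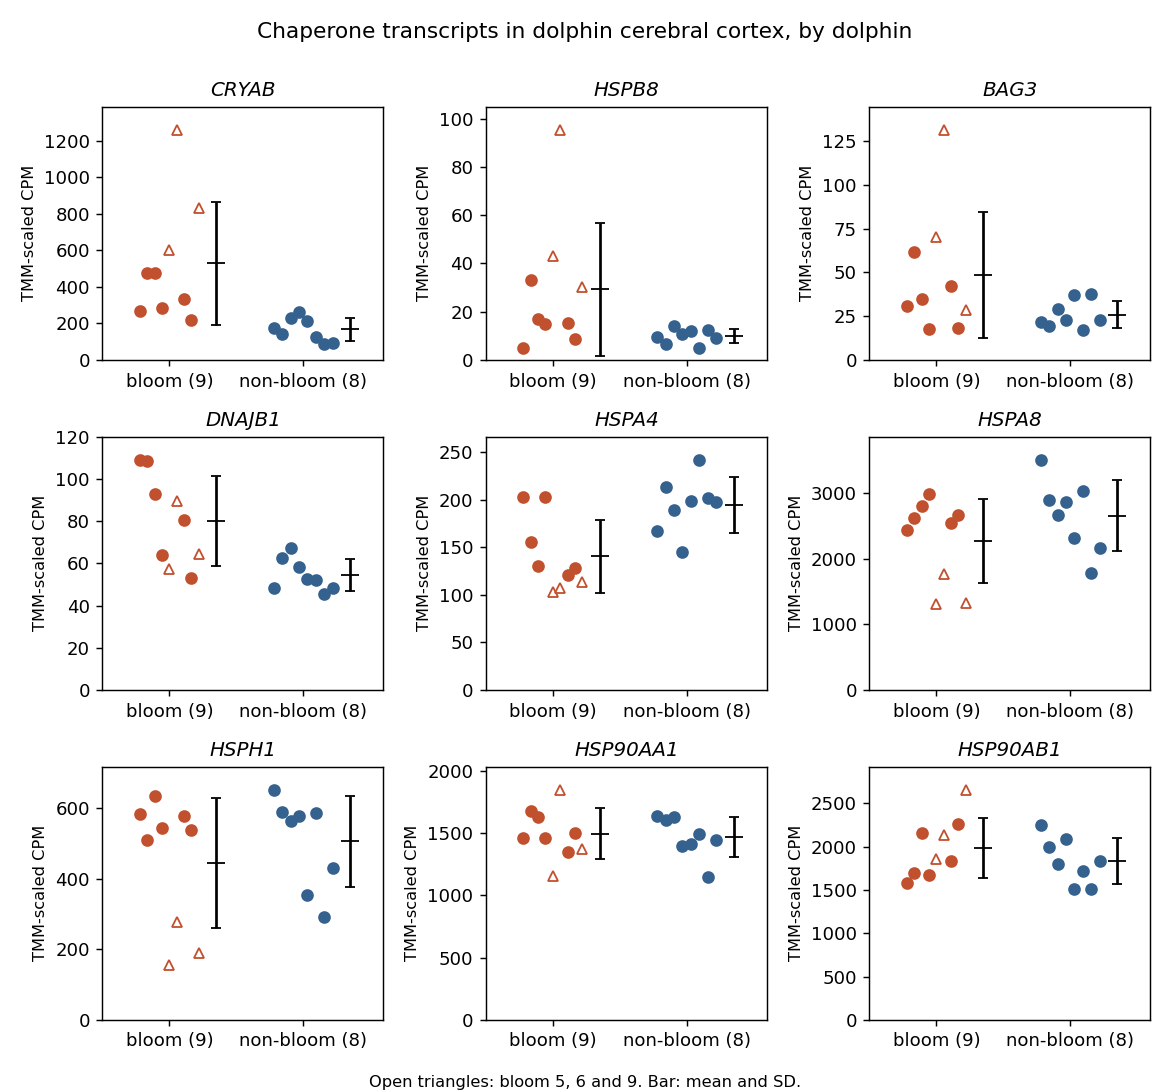
Level of each chaperone transcript (vertical axis, TMM-scaled CPM) in every dolphin, bloom on the left and non-bloom on the right of each panel, with the mean and SD as a bar and bloom 5, 6 and 9 as open triangles. CRYAB was higher than every non-bloom dolphin in 8 of 9 bloom dolphins, HSPA8 and HSPH1 were lowest in bloom 5, 6 and 9, and the HSP90 panels overlap.

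CRYAB, the alpha-B crystallin gene, ran from 218 to 1261 with a median of 474 in bloom dolphins, against 87.8 to 262 with a median of 159.8 in non-bloom dolphins. Of the 9 bloom dolphins 8 lay above the highest non-bloom dolphin and all 9 above the non-bloom median, which 6.05% of all genes did. Bloom 8 was the exception inside the non-bloom range, and bloom 6, 9 and 5 were the highest, at 1261, 835 and 604. The mean was 529 ± 336 in bloom dolphins (SD, n = 9) and 167 ± 64.8 in non-bloom dolphins (SD, n = 8), 3.16 times higher. The log2 change was 1.53 (SE 0.32, limma adjusted p = 0.0230).

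CRYAB also rose when bloom 5, 6 and 9 were left out, by a smaller amount. The mean of the remaining 6 bloom dolphins was 343 ± 109.5, which is 2.05 times the non-bloom mean, and the log2 change was 1.07 (SE 0.26, limma adjusted p = 0.0418). Leaving out non-bloom 2, 6 or 8 in turn ended the call, with adjusted p of 0.0584, 0.0512 and 0.0523, while the log2 change stayed between 1.35 and 1.67 over the 17 single omissions. Only 61, 93 and 66 genes passed at all in those fits, against 1241 with all 17 libraries. Adjusted p depends on the p of every gene tested, so these lost calls do not rest on CRYAB alone.

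Bloom 5, 6 and 9 also carried the highest summed levels of astrocyte and oligodendrocyte markers, though not of microglial markers. The part of cell makeup in these results was not tested. In bulk tissue, more cells of a type and more RNA per cell cannot be told apart. The 12 astrocyte markers summed to 2412 to 17921 in bloom dolphins and 2474 to 5863 in non-bloom dolphins, and 14591 to 17921 in bloom 5, 6 and 9. The 11 oligodendrocyte markers summed to 4449 to 19201 in bloom dolphins and 1698 to 8083 in non-bloom dolphins, with 14129 to 19201 in the same 3. The 11 neuronal markers ran the other way, at 2438 to 10507 in bloom dolphins and 7928 to 13863 in non-bloom dolphins. They summed to 2438, 3832 and 7814 in bloom 5, 6 and 9, so bloom 5 and 6 were the lowest while bloom 9 lay above bloom 2 (5718) and bloom 7 (7760). By mean log2 level, the scale of the covariates used next, the 3 stood apart less for astrocyte markers and not at all for oligodendrocyte markers. Astrocyte markers averaged 8.79, 9.33 and 7.83 in bloom 5, 6 and 9 and 5.08 to 7.89 in non-bloom dolphins. Oligodendrocyte markers averaged 6.69, 7.90 and 7.09 in bloom 5, 6 and 9 and 5.83 to 7.81 in non-bloom dolphins. The other bloom dolphins had 7.25 to 7.69, so bloom 5 and 9 were the lowest of the bloom group and bloom 6 the highest.

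By limma, 0 of the 12 astrocyte markers passed, although all 12 had positive log2 changes and 6 had an unadjusted p under 0.05, and edgeR, DESeq2 and voom called 3, 7 and 4 of them, to be read against the shares of all genes given above. Of the oligodendrocyte markers 2 of 11 rose by limma, all 11 had positive log2 changes and 6 had an unadjusted p under 0.05. Of the neuronal markers 1 of 11 fell by limma, 10 had negative log2 changes and 6 were lower at an unadjusted p under 0.05. edgeR, DESeq2 and voom called 1, 4 and 8 of the oligodendrocyte markers higher and 1, 2 and 5 of the neuronal markers lower. Endothelial markers (9) summed to 202 to 2443 in bloom dolphins and 271 to 808 in non-bloom dolphins, and microglial markers (8) to 4.77 to 37.4 in bloom dolphins and 4.97 to 294 in non-bloom dolphins.

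With a marker level as covariate, the log2 change of CRYAB was 1.15 beside astrocyte markers (SE 0.33, limma adjusted p = 0.209). It was 1.28 beside oligodendrocyte markers (SE 0.41, adjusted p = 0.106) and 1.19 beside neuronal markers (SE 0.34, adjusted p = 0.213). In those 3 fits 13, 7 and 10 of the 13548 genes passed at all. With the ratio of mitochondrial to other reads as covariate it was 1.37 (adjusted p = 0.00394).

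HSPB8, the small heat shock protein that pairs with BAG3, had 5.05 to 95.4 with a median of 16.9 in bloom dolphins, against 5.03 to 14.3 with a median of 10.1 in non-bloom dolphins. It exceeded the highest non-bloom value in 7 of 9 bloom dolphins, while bloom 1 and bloom 8 lay low in the non-bloom range. The mean was 29.2 ± 27.7 in bloom dolphins (SD, n = 9) and 9.92 ± 3.05 in non-bloom dolphins (SD, n = 8). The log2 change of 1.07 (SE 0.41) missed the threshold (limma adjusted p = 0.0834).

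The call on HSPB8 depended on the test and on single dolphins. edgeR's quasi-likelihood test called it (log2 change 1.55, adjusted p = 0.0447). DESeq2 (1.57, adjusted p = 0.00645) and voom with quality weights (0.87, adjusted p = 0.0372) called it too, beside the larger shares of all genes given for them above. limma called it once bloom 1 was left out (log2 change 1.30, adjusted p = 0.0266) or bloom 8 (1.22, adjusted p = 0.0450). In those fits 2895 and 2690 genes passed in all, against 1241 with every dolphin. The log2 change was 0.46 without bloom 5, 6 and 9 (SE 0.31, limma adjusted p = 0.389). With marker levels as covariate it was 0.17 beside astrocyte, 0.30 beside neuronal and 0.88 beside oligodendrocyte markers.

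BAG3, the co-chaperone that links HSPB8 to HSP70 and to autophagy, had 17.5 to 131 with a median of 34.8 in bloom dolphins and 17.1 to 37.7 with a median of 22.8 in non-bloom dolphins. Bloom 2, 5, 6 and 7 exceeded every non-bloom dolphin, and the other 5 fell within their range. The mean was 48.3 ± 36.0 in bloom dolphins (SD, n = 9) against 25.9 ± 7.93 in non-bloom dolphins (SD, n = 8), a log2 change of 0.64 (SE 0.33, limma adjusted p = 0.162). It was 0.30 without bloom 5, 6 and 9 (SE 0.26). With marker levels as covariate it was 0.03 beside astrocyte, 0.016 beside neuronal and 0.39 beside oligodendrocyte markers. DESeq2 called BAG3 higher (log2 change 0.91, adjusted p = 0.0471), while edgeR (adjusted p = 0.0862) and voom with quality weights (adjusted p = 0.0629) did not.

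The small heat shock proteins and BAG3 varied most between dolphins. The highest library was 19.0 times the lowest for HSPB8, 14.4 times for CRYAB and 7.70 times for BAG3, against 1.61 times for HSP90AA1 and 1.76 times for HSP90AB1. Within the bloom group the coefficient of variation was 94.9% for HSPB8, 74.4% for BAG3 and 63.5% for CRYAB. Within the non-bloom group it was 30.8%, 30.6% and 38.7% for the same genes.

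**Figure D2:**
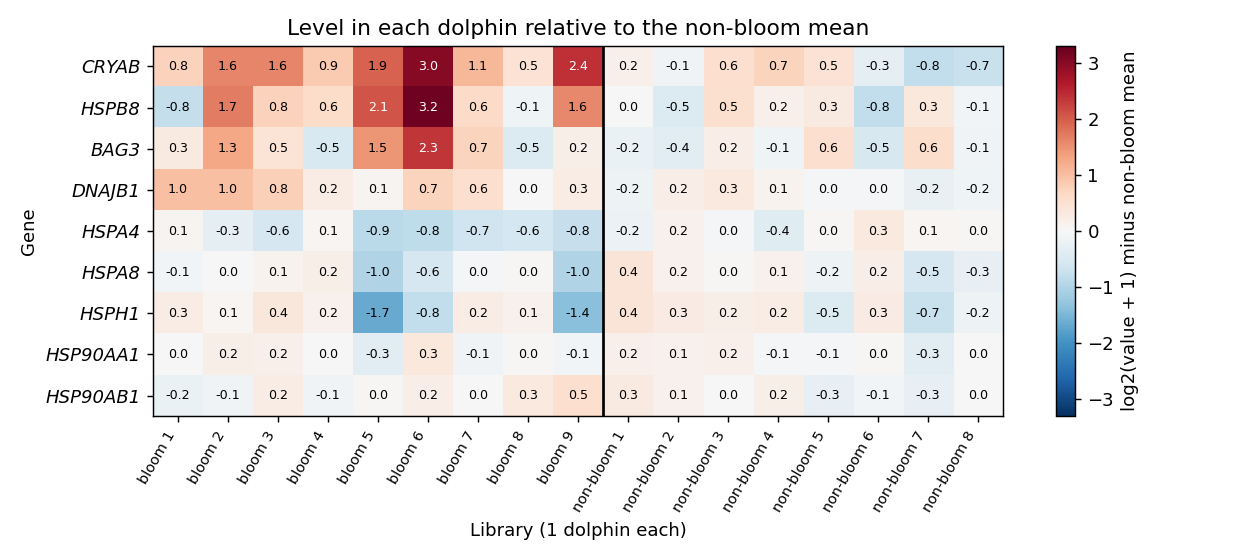
Level of each chaperone (rows) in each dolphin (columns, bloom left of the line and non-bloom right of it), as log2(value + 1) minus the non-bloom mean, in colour and digits. CRYAB, HSPB8 and BAG3 reach their highest values in bloom 6, and HSPA8 and HSPH1 their lowest in bloom 5.

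DNAJB1, the J-domain protein that delivers substrates to HSP70 and is a classical HSF1 target, was modestly higher in bloom cortex. Its level was 53.2 to 109 with a median of 80.3 in bloom dolphins and 45.7 to 67.2 with a median of 52.3 in non-bloom dolphins. All 9 bloom dolphins lay above the non-bloom median, and bloom 1, 2, 3, 6 and 7 lay above every non-bloom dolphin. The mean was 80.0 ± 21.3 in bloom dolphins (SD, n = 9) and 54.4 ± 7.61 in non-bloom dolphins (SD, n = 8), with a log2 change of 0.51 (SE 0.15, limma adjusted p = 0.0471).

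When single dolphins were left out, the size of the DNAJB1 change was steady while its call lay at the threshold. Over the 17 single omissions the log2 change stayed between 0.45 and 0.58, and the call held only without bloom 1, 4, 8 or 9. It was lost in the other 13, without bloom 2, 3, 5, 6 or 7 or any 1 of the 8 non-bloom dolphins, at adjusted p of 0.0534 to 0.0882. Adjusted p depends on all genes, and 551 genes passed without non-bloom 3, against 1241 with every dolphin. There the log2 change of DNAJB1 was 0.56 and its unadjusted limma p 0.00268, against 0.51 and 0.00358 with every dolphin. Without non-bloom 1 the unadjusted limma p was larger, at 0.00780. With bloom 5, 6 and 9 left out together the log2 change was 0.59 (SE 0.16, limma adjusted p = 0.0541), and edgeR called it there (adjusted p = 0.0488). Beside astrocyte markers the log2 change was 0.53 (SE 0.18, limma adjusted p = 0.276). It was 0.57 beside neuronal markers (SE 0.18, limma adjusted p = 0.238) and 0.39 beside oligodendrocyte markers (SE 0.19, adjusted p = 0.187). The 2 dolphins with the highest DNAJB1, bloom 1 and 2 at 109 and 108, had mitochondrial shares of 8.86% and 14.3%. The 2 bloom dolphins with the lowest, bloom 8 and 5 at 53.2 and 57.3, had shares of 1.47% and 57.0%.

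HSPA8, the constitutive HSP70 of the cytosol, ran from 1304 to 2988 with a median of 2535 in bloom dolphins and from 1782 to 3504 with a median of 2764 in non-bloom dolphins. Bloom 5, 9 and 6 were the lowest of all 17, at 1304, 1317 and 1757, and the other 6 bloom dolphins lay within the non-bloom range. The mean was 2268 ± 639.9 in bloom dolphins (SD, n = 9) and 2652 ± 544 in non-bloom dolphins (SD, n = 8), a log2 change of -0.26 (SE 0.22, limma adjusted p = 0.396). The 6 bloom dolphins besides those 3 had a mean of 2673 ± 199, and the log2 change without the 3 was 0.036 (SE 0.16).

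HSPH1, the HSP110 protein that exchanges nucleotide on HSP70 and helps dissolve aggregates, split the bloom dolphins in the same way. It had 154 to 633 with a median of 538 in bloom dolphins and 292 to 651 with a median of 569 in non-bloom dolphins. Bloom 5, 9 and 6 were lowest, at 154, 189 and 277, and the other bloom dolphins had 508 to 633. The log2 change was -0.29 (SE 0.29, limma adjusted p = 0.470) over all 17 dolphins and 0.20 (SE 0.17, adjusted p = 0.492) without those 3.

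HSPA4, a relative of HSPH1 in the same exchange factor family, was lower in most bloom dolphins. It had 103 to 203 with a median of 128 in bloom dolphins and 145 to 242 with a median of 198 in non-bloom dolphins. Bloom 3, 5, 6, 7, 8 and 9 lay below every non-bloom dolphin, while bloom 1 and 4, at 203 and 202, lay above the non-bloom median. The mean was 140.4 ± 38.5 in bloom dolphins (SD, n = 9) and 194 ± 29.2 in non-bloom dolphins (SD, n = 8), with a log2 change of -0.49 (SE 0.15) just short of the threshold (limma adjusted p = 0.0505). limma called HSPA4 without bloom 1, 4 or 8 or without non-bloom 4, at adjusted p of 0.0197, 0.0244, 0.0453 and 0.0461. In those fits 2895, 2316, 2690 and 911 genes passed in all, against 1241 with every dolphin. DESeq2 (adjusted p = 0.0230) and voom with quality weights (adjusted p = 0.00541) called HSPA4 lower, beside the larger shares of all genes given for them above. edgeR did not (adjusted p = 0.0606). Without bloom 5, 6 and 9 the log2 change of HSPA4 was -0.33 (SE 0.14, adjusted p = 0.192). It was -0.28 beside neuronal markers (SE 0.15, limma adjusted p = 0.458) and -0.34 beside astrocyte markers (SE 0.16, adjusted p = 0.409). Beside oligodendrocyte markers it was -0.56 (SE 0.20, limma adjusted p = 0.114).

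HSP90AA1, the inducible cytosolic HSP90, had 1157 to 1851 with a median of 1464 in bloom dolphins and 1149 to 1643 with a median of 1469 in non-bloom dolphins. The groups overlapped nearly throughout, with bloom 2 and 6 above the highest non-bloom dolphin. The mean was 1497 ± 203 in bloom dolphins (SD, n = 9) and 1471 ± 163 in non-bloom dolphins (SD, n = 8), a log2 change of 0.02 (SE 0.14, limma adjusted p = 0.924). It was 0.046 (SE 0.12) without bloom 5, 6 and 9.

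HSP90AB1, the constitutive cytosolic HSP90, had 1574 to 2657 with a median of 1859 in bloom dolphins and 1507 to 2251 with a median of 1818 in non-bloom dolphins. Bloom 9 and 8 exceeded the highest non-bloom dolphin. The mean was 1984 ± 349 in bloom dolphins (SD, n = 9) and 1838 ± 264 in non-bloom dolphins (SD, n = 8), a log2 change of 0.10 (SE 0.16, limma adjusted p = 0.650). It was 0.022 (SE 0.14) without bloom 5, 6 and 9. None of the 9 chaperones followed here had groups that were fully separate, and 0.657% of all genes did.

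**Figure D3:**
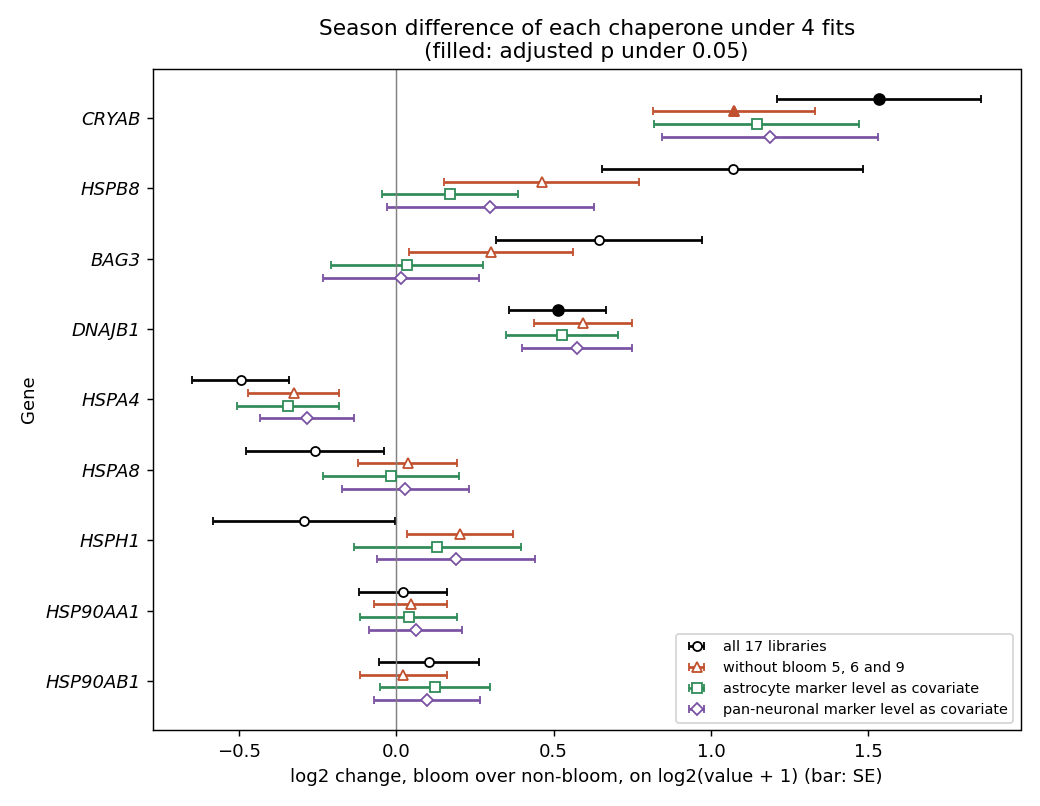
Log2 change of each chaperone, bloom over non-bloom, on log2(value + 1) (horizontal axis, bar: SE) in all 17 libraries, without bloom 5, 6 and 9, and with the astrocyte or neuronal marker level as covariate; filled points have an adjusted p under 0.05. CRYAB stays between 1.07 and 1.53 and DNAJB1 between 0.51 and 0.59 in these fits, while HSPB8 lies between 0.17 and 1.07. The fit with oligodendrocyte markers, not drawn, gave 1.28 for CRYAB, 0.39 for DNAJB1 and 0.88 for HSPB8.

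The balance between the groups was followed from dolphin to dolphin as the mean log2 level of CRYAB, HSPB8 and BAG3 minus that of the 6 larger chaperones. Its absolute size also carries gene length, so only its differences between dolphins are read. It was -4.12 to -1.03 in bloom dolphins and -4.69 to -3.44 in non-bloom dolphins. Bloom 6, 5 and 9 had the highest values, at -1.03, -1.59 and -2.25, and bloom 1, 4 and 8 lay within the non-bloom range. These are descriptions, since the genes were grouped with results of these data known.

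Ratios of 2 chaperones were taken within each library as differences of log2(value + 1), and 4 were compared by two-sided exact permutation tests over 24310 splits of the dolphins, adjusted over the 4. DNAJB1 over HSPA8, the J-domain protein over its HSP70 partner, was higher in bloom cortex. The log2 ratio averaged -4.79 ± 0.50 in bloom dolphins (SD, n = 9) and -5.57 ± 0.30 in non-bloom dolphins (SD, n = 8), a difference of 0.77 (exact permutation p = 0.00296, adjusted p = 0.0118). It lay above the highest non-bloom dolphin in 7 of 9 bloom dolphins. Without bloom 5, 6 and 9, whose HSPA8 was lowest, the difference was 0.56 and missed the threshold (exact permutation, adjusted p = 0.0826). Ratios of other gene pairs were not taken, so how many would reach such a p is not known.

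BAG3 over HSPB8, the co-chaperone over its small heat shock protein, had a log2 ratio of 0.88 ± 0.72 in bloom dolphins (SD, n = 9) and 1.31 ± 0.25 in non-bloom dolphins (SD, n = 8). The difference of -0.42 did not pass (exact permutation p = 0.137, adjusted p = 0.275). It did without bloom 1, where it was -0.61 (exact permutation, adjusted p = 0.0115). With bloom 5, 6 and 9 left out it was -0.16 (exact permutation, adjusted p = 0.762). HSP90AA1 over HSP90AB1 averaged -0.40 ± 0.30 in bloom dolphins and -0.32 ± 0.16 in non-bloom dolphins, a difference of -0.08 (exact permutation, adjusted p = 0.506), and of 0.024 with bloom 5, 6 and 9 left out. HSPH1 over HSPA4 averaged 1.54 ± 0.61 in bloom dolphins and 1.34 ± 0.51 in non-bloom dolphins, a difference of 0.20 (exact permutation, adjusted p = 0.506). That difference was 0.53 with bloom 5, 6 and 9 left out (exact permutation, adjusted p = 0.113) and 0.086 to 0.32 over single omissions.

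**Figure D4:**
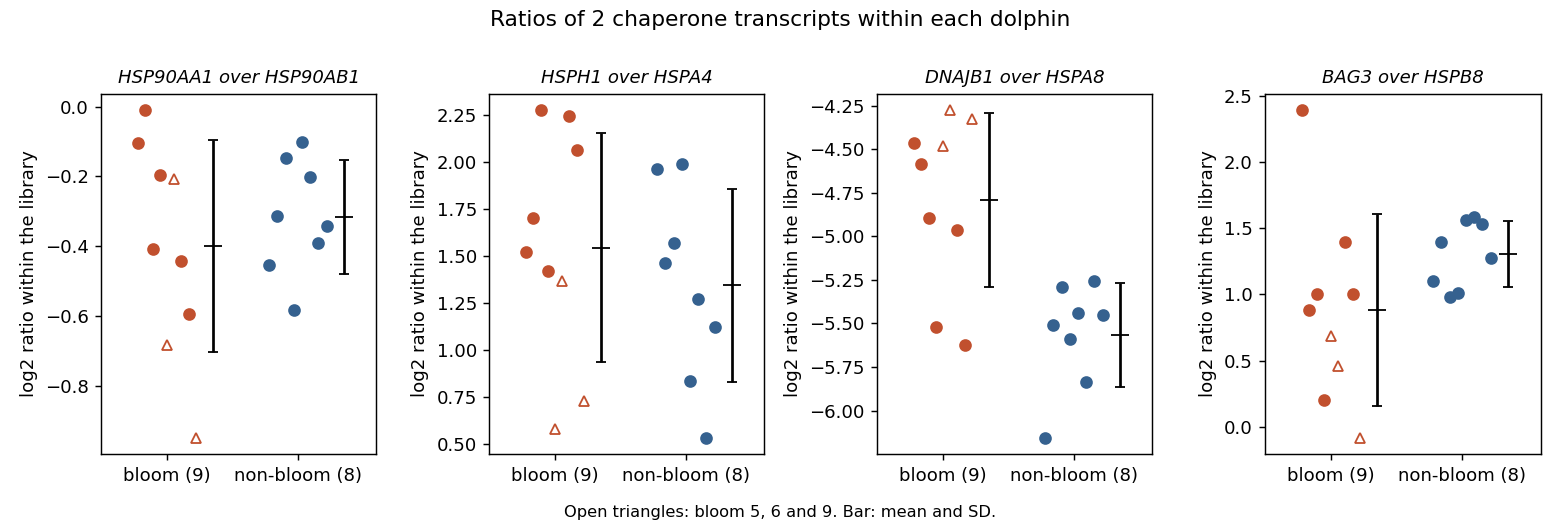
Log2 ratio of 2 chaperone transcripts within each library (vertical axis) for 4 pairs, bloom on the left and non-bloom on the right of each panel, with mean and SD as a bar and bloom 5, 6 and 9 as open triangles. DNAJB1 over HSPA8 lies above the non-bloom range in 7 of 9 bloom dolphins, and the HSP90 ratio overlaps.

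How alike chaperones were across dolphins was described by Pearson's r of log2 levels after each season mean was subtracted, ranked over 8741 other genes. The dolphins share depth, mitochondrial share and cell makeup across all genes, so r is a description with no test. HSPA8 and HSPH1 had r = 0.96 over 17 libraries, where HSPH1 ranked 2 for HSPA8, and 0.88 over the 14 without bloom 5, 6 and 9, where it ranked 39. HSPB8 and BAG3 had 0.80 over 17 and 0.65 over 14, with BAG3 at rank 309 and 469 for HSPB8. DNAJB1 and its partner HSPA8 had 0.33 over 17 and 0.05 over 14, with HSPA8 at rank 1321 and 3751 for DNAJB1.

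The genes most like CRYAB were SAFB2 and EIF3M, both with r = 0.94 over 17 libraries, and the same 2 led without bloom 5, 6 and 9, both at 0.90. For the other 8 chaperones, 0 of the 2 nearest genes were the same in both sets of libraries. Over 17 libraries the nearest to HSPB8 were ACADS (0.96) and ALDH7A1 (0.95), and to BAG3 SLC12A4 (0.96) and TRIOBP (0.95). DNAJB1 had lower values, led by ECT2 (0.79) and the J-domain gene DNAJB4 (0.75). HSPA4 was nearest to PDP2 (0.96) and YTHDF3 (0.95), HSPA8 to MAGEH1 and HSPH1 (both 0.96), and HSPH1 to USP14 and CHN1 (both 0.97). HSP90AA1 was led by ALKBH3 (0.79) and CCNH (0.75), and HSP90AB1 by PTOV1 and ERGIC3 (both 0.92).

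Other genes of the folding and clearance system moved in both directions, and the genes that passed were spread over 5 of the 9 lists. The median log2 change over all genes was -0.0034. Counts below are out of the members tested by limma at adjusted p under 0.05, counts by other tests or before adjustment stand against the shares of all genes given for them above, and the list contents were chosen with earlier results of these data known.

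**Figure D5:**
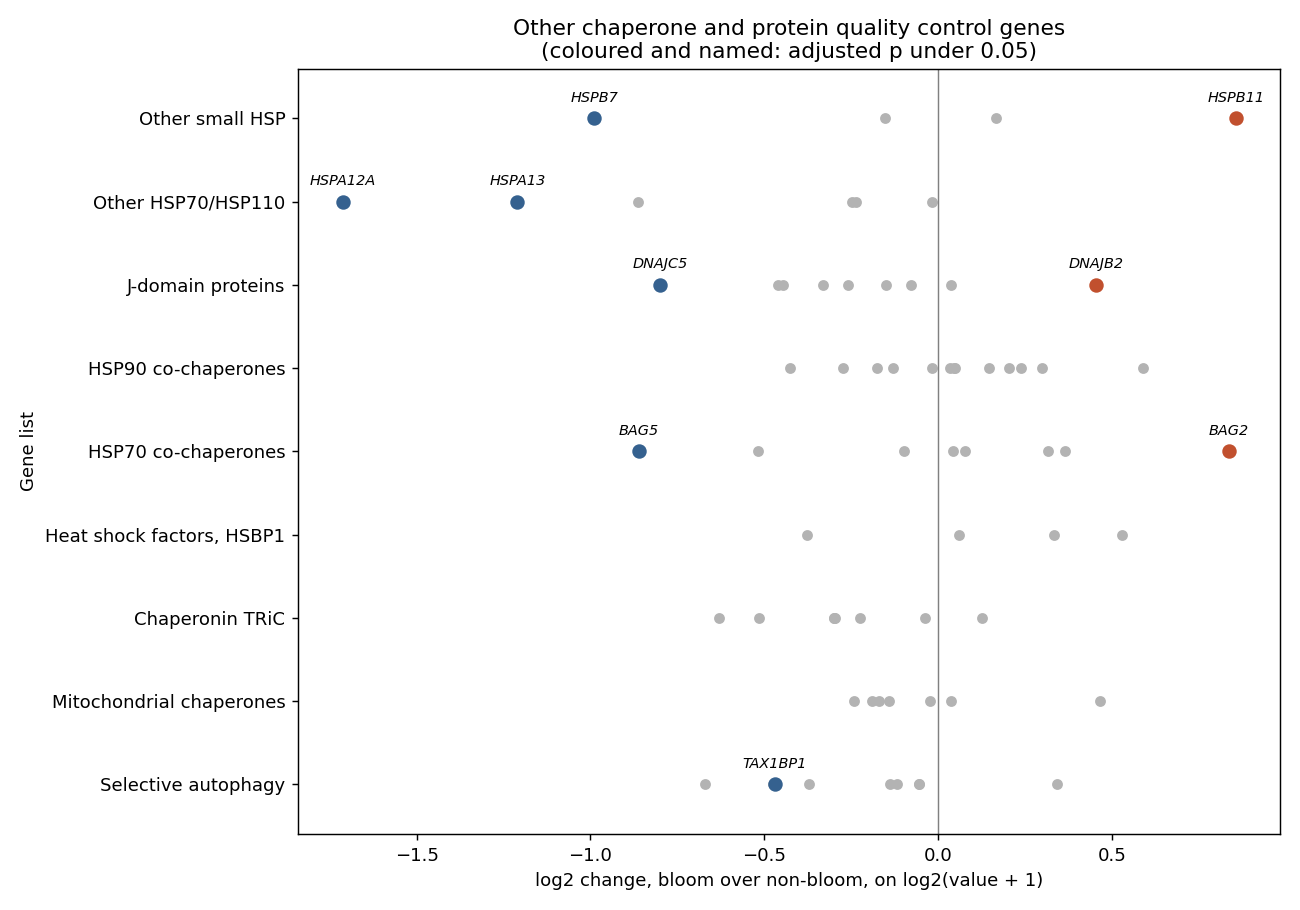
Log2 change of each tested gene (points), bloom over non-bloom, on log2(value + 1) (horizontal axis), by list of chaperone or protein quality control genes; named and coloured points have an adjusted p under 0.05. Passing genes lie on both sides of 0, from -1.71 for HSPA12A to 0.86 for HSPB11.

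Among 4 other tested genes of the small heat shock protein family, 1 rose and 1 fell, with a median log2 change of 0.01. HSPB7, known mainly from heart muscle, averaged 18.1 ± 9.36 in bloom dolphins and 33.9 ± 9.64 in non-bloom dolphins (SD, n = 9 and 8; log2 change -0.99, limma adjusted p = 0.0440). HSPB11, which despite its name is the intraflagellar transport protein IFT25 of cilia, averaged 13.8 ± 5.42 in bloom dolphins and 7.01 ± 2.18 in non-bloom dolphins (log2 change 0.86, limma adjusted p = 0.0330). HSPB7 lost its call in 11 of 17 single omissions and HSPB11 in 8, and neither passed without bloom 5, 6 and 9 (log2 change -0.78 for HSPB7 and 0.58 for HSPB11). edgeR called HSPB11 but not HSPB7 (adjusted p = 0.0515).

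Among 6 other HSP70 and HSP110 genes, 0 rose and 2 fell by limma, and the median log2 change was -0.55. None was higher at an unadjusted p under 0.05 or by edgeR, DESeq2 or voom. HSPA12A, a distant HSP70 relative prominent in brain, averaged 59.7 ± 48.5 in bloom dolphins and 146 ± 50.3 in non-bloom dolphins (SD, n = 9 and 8; log2 change -1.71, limma adjusted p = 0.0420). HSPA13, an HSP70 of the microsomal compartment, averaged 45.5 ± 23.2 in bloom dolphins and 91.2 ± 16.0 in non-bloom dolphins (log2 change -1.21, limma adjusted p = 0.0409). Without bloom 5, 6 and 9 HSPA13 still fell, by 0.61 on the log2 scale (limma adjusted p = 0.0408), and HSPA12A did not pass (log2 change -0.90, adjusted p = 0.0982). Single omissions ended the call of HSPA12A in 13 of 17 cases and of HSPA13 in 11, and edgeR did not call HSPA12A (adjusted p = 0.0656). The stress-induced HSP70 genes HSPA1A, HSPA1B and HSPA6 were not analysed here.

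Of 9 other J-domain genes, 1 rose and 1 fell, and the median was -0.26. DNAJB2, a neuronal J-domain protein that sorts clients for the proteasome, had 108.9 to 165 in bloom dolphins and 71.5 to 108.5 in non-bloom dolphins. For DNAJB2 the groups thus did not overlap, by a small margin, as for 0.657% of all genes tested. Its mean was 125 ± 16.8 in bloom dolphins and 91.2 ± 11.5 in non-bloom dolphins (SD, n = 9 and 8; log2 change 0.46, limma adjusted p = 0.0299), and it passed without bloom 5, 6 and 9 too (0.40, adjusted p = 0.0443). DNAJC5, the cysteine string protein of synaptic vesicles, averaged 41.2 ± 16.3 in bloom dolphins and 70.0 ± 19.4 in non-bloom dolphins (log2 change -0.80, limma adjusted p = 0.0462). It did not pass with edgeR (adjusted p = 0.0510) or without bloom 5, 6 and 9 (log2 change -0.48, limma adjusted p = 0.177). Single omissions ended the call of DNAJB2 in 6 of 17 cases and of DNAJC5 in 12.

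Of 8 HSP70 co-chaperones, 1 rose and 1 fell, with a median of 0.06. BAG2, an inhibitor of the ubiquitin ligase CHIP, averaged 12.4 ± 4.61 in bloom dolphins and 6.32 ± 1.97 in non-bloom dolphins (SD, n = 9 and 8; log2 change 0.84, limma adjusted p = 0.0350). BAG5, another BAG domain exchange factor, averaged 34.7 ± 14.1 in bloom dolphins and 60.6 ± 9.88 in non-bloom dolphins (log2 change -0.86, limma adjusted p = 0.0292). Without bloom 5, 6 and 9 neither passed, at adjusted p of 0.110 for BAG2 and 0.0640 for BAG5, and single omissions ended the calls in 10 and 5 of 17 cases.

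Of 13 HSP90 co-chaperones 0 passed in either direction by limma or edgeR. Before adjustment, 1 was higher and 1 lower at p under 0.05, and DESeq2 called 1 higher. The smallest p was that of CHORDC1, an HSP90 partner, at 37.7 ± 10.5 in bloom dolphins and 25.0 ± 8.61 in non-bloom dolphins (SD, n = 9 and 8; log2 change 0.59, limma adjusted p = 0.0677), and 0.70 without bloom 5, 6 and 9 (adjusted p = 0.0801). voom with quality weights called 2 of the 13 higher and 1 lower.

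The heat shock factors HSF1, HSF2 and HSF4 and the HSF1-binding protein HSBP1, a negative regulator, gave 0 calls among 4 tested by limma or edgeR. At an unadjusted p under 0.05, 2 were higher and 1 lower, and DESeq2 and voom each called 1 higher. HSF4 had the smallest p, at 47.4 ± 23.0 in bloom dolphins and 30.1 ± 4.14 in non-bloom dolphins (SD, n = 9 and 8; log2 change 0.53, limma adjusted p = 0.0895), and 0.37 without bloom 5, 6 and 9.

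The 8 subunits of TRiC, the ring chaperonin that folds actin and tubulin, gave 0 calls by limma or edgeR, although 7 had negative log2 changes and 5 were lower at an unadjusted p under 0.05. DESeq2 called 2 lower and voom 1. CCT8 had the smallest p, at 289 ± 75.5 in bloom dolphins and 404 ± 68.0 in non-bloom dolphins (SD, n = 9 and 8; log2 change -0.51, limma adjusted p = 0.0560), and without bloom 5, 6 and 9 its log2 change was -0.26.

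The 7 chaperones of the mitochondrial matrix gave 0 calls by limma or edgeR, with 1 higher at an unadjusted p under 0.05 and 1 higher by DESeq2 and by voom. HSPE1, the small ring partner of HSPD1, had the smallest p, at 142 ± 28.4 in bloom dolphins and 104 ± 26.8 in non-bloom dolphins (SD, n = 9 and 8; log2 change 0.47, limma adjusted p = 0.0659), and 0.31 without bloom 5, 6 and 9.

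Of 9 genes of selective autophagy, the route served by BAG3, 1 fell and 0 rose by limma, and 8 had negative log2 changes. TAX1BP1, a cargo receptor, averaged 231 ± 48.7 in bloom dolphins and 314 ± 24.5 in non-bloom dolphins (SD, n = 9 and 8; log2 change -0.47, limma adjusted p = 0.0442). Its call ended in 12 of 17 single omissions and without bloom 5, 6 and 9 (log2 change -0.28, adjusted p = 0.0923). At an unadjusted p under 0.05, 1 gene of this list was higher and 4 were lower, and DESeq2 and voom each called 1 higher and 4 lower. edgeR called 0 higher and 2 lower, TAX1BP1 among them (adjusted p = 0.0459).

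In the deposited annotation, of a genome build not named in the labels or files, CRYAB (ENSTTRG00000010502) lies on GeneScaffold_3620 from 482174 to 485441. An unnamed protein-coding gene overlaps it with a mean value of 1.62 over the 17 libraries, and the gene labelled HSPB2-C11ORF52, at a mean of 6.08, lies 1069 bases away. HSPB8 (ENSTTRG00000014608) lies on GeneScaffold_1576 from 272248 to 278443, and DNAJB1 (ENSTTRG00000007944) on GeneScaffold_1115 from 203073 to 205549. HSPA8 (ENSTTRG00000011139), on GeneScaffold_769 from 174750 to 178580, holds 2 SNORD14 genes, whose means were 0.122 and 0.868. The labels and files do not say whether counting used strand. HSPA8 and the HSP90 genes have close relatives, and reads shared with them could be split by the counting.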

How the data were processed

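RNA-seq libraries were made from about the same mass of frozen cortex per dolphin, per the labels' protocols, and read trimming with Trim Galore 0.6.1 and alignment with STAR 2.5.2a are named in the submitters' processing notes. How reads were counted, and on which genome build and annotation, was not stated in the labels or file headers. Each library has 1 deposited signal value per gene. All nonzero values (100%) were whole multiples of 1 read within 0.01 (largest deviation 0.000245), so reads were recovered from them, and the values behaved as CPM scaled by TMM. The floor of 3 reads, which covers counting error only, equalled a value between 0.158 and 1.71. The fewest reads behind a value were 50 for BAG3 and 53 for HSPB8, both in bloom 9.

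Of 21265 genes, 17542 had reads and 13548 were kept (filterByExpr in edgeR, with season as group, a minimum count of 10 and a minimum total of 15). Seasons were compared with limma-trend fitted to log2(value + 1), season alone in the model, and p was Benjamini-Hochberg adjusted over all genes tested; the plan had named it for normalised values. edgeR's quasi-likelihood test on the recovered reads is an alternative. The software was limma 3.58.1, DESeq2 1.42.0 and edgeR 4.0.16, run in R 4.3.3. Groups came from the treatment label, with the replicate number given in accession order, and p-values measure the spread between dolphins. No pair of libraries was alike within sampling noise: the closest, non-bloom 2 and 8, had a chi-square of 17.0 per gene over 14242 genes.

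Named genes are the members, each list member that passed up to 6 by smallest p or, where none passed, the one with the smallest p, and for likeness the 2 genes with the highest r for each member, among tested genes with a symbol and a mean of at least 10. The members and lists were chosen with earlier results of these data known. Alternatives were other scalings, tests, filters, a pseudocount of 0.1, marker and mitochondrial covariates, and leaving out libraries. edgeR without bloom 5, 6 and 9 was added after seeing the data.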

Additional observations from a re-analysis of the deposited data

Results flagged for a closer look

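On the CPM scale, HSPB8 in bloom 6 stood at 95.4, far above the other 8 bloom dolphins, which ranged from 5.05 to 43.2. BAG3 in bloom 6 stood at 131, far above the other bloom dolphins at 17.5 to 70.1. These are a pair of values from the same library among 26 groups of values examined for a dolphin set apart from its group. Chance sets apart about 1 in 20 groups where values are normally distributed, which was not tested. On log2(value + 1), HSPB8 was 6.59 in bloom 6 and 2.60 to 5.47 in the other bloom dolphins. BAG3 was 7.05 in bloom 6 and 4.21 to 6.15 in the others, and whether bloom 6 is set apart on that scale was not examined. Bloom 6 also had the highest CRYAB, 1261, and a mitochondrial share of 33.5%; the part of cell makeup or RNA quality in these values was not tested. Without bloom 6, the log2 change was 0.80 for HSPB8 and 0.43 for BAG3.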

How the results depend on the processing

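No paired analysis was possible because the 2 seasons were sampled in different dolphins, with 1 library per dolphin. The ratio of CRYAB over HSPB1 was not run, since no gene named HSPB1 was found. CRYAB, HSPB8, BAG3, DNAJB1, HSPA4 and HSP90AB1 kept their direction under all 31 alternatives; CRYAB passed in 25 of them and DNAJB1 in 12. Over all genes, 1241 passed; 3170 did with DESeq2, 4222 with voom, 560 with no filter, 10, 13 and 7 with the neuronal, astrocyte and oligodendrocyte covariates, 2518 with the mitochondrial ratio, 320 without bloom 5, 6 and 9, 237 with edgeR without them, and 61 to 2895 over single omissions. limma split its calls into 606 higher and 635 lower, and edgeR into 823 higher and 346 lower. Of the chaperones, 2 were called higher; this was 4 with DESeq2, 1 with no filter, with pseudocount 0.1 or without bloom 5, 6 and 9, 0 with each of those 3 marker covariates, and 0 to 3 over single omissions. The count called lower was 1, in place of 0, with RLE scaling, DESeq2, voom, a filter of a value of 1 in 8 libraries and the mitochondrial ratio, and 0 to 1 over single omissions. HSPA8 reversed to 0.030 with the neuronal covariate, 0.036 without bloom 5, 6 and 9 and 0.0091 with edgeR without them. HSPH1 reversed to 0.042 with voom, 0.19 with the neuronal and 0.13 with the astrocyte covariate, 0.20 without bloom 5, 6 and 9 and 0.16 with edgeR without them. HSP90AA1 reversed to -0.033 with the oligodendrocyte covariate, and ran from -0.028 to 0.066 over single omissions. Without bloom 5, 6 and 9 the log2 ratio difference was 0.024 for HSP90AA1 over HSP90AB1, 0.56 for DNAJB1 over HSPA8, 0.53 for HSPH1 over HSPA4 and -0.16 for BAG3 over HSPB8. Over single omissions it ran from -0.61 to -0.30 for BAG3 over HSPB8. The cause of these changes was not tested. Depth limits bloom 9 most, where 3 reads equal a value of 1.71.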
